A study of Mus musculus with 24 samples.

Results

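The mTOR brakes, sestrins and FoxO genes, 10 genes tied to the restraint of growth signalling, were followed in the mouse hippocampus after a night with or without corticosterone in the drinking water. They are Ddit4, Ddit4l, Sesn1, Sesn2, Sesn3, Depp1, Prr5, Deptor, Foxo1 and Foxo3, chosen by name, with every non-control probe whose annotated transcript maps to those symbols. The choice was made with earlier results of these data known. This gave 10 of the 23787 genes that could be named on the array and 14 of its 56605 probes. The tissue came from 48 male Swiss-Webster mice, given in the labels as 12 weeks old, in 6 groups of 8 animals with no pooling of RNA. The 3 corticosterone groups drank 100 µg/ml corticosterone with 0.45% hydroxypropyl-β-cyclodextrin through a dark phase of 12 hours, and the 3 vehicle groups drank the same cyclodextrin solution without the hormone. A corticosterone group and a vehicle group were killed in the first hour of the next light phase, another pair of groups in the fifth and the last pair in the ninth, called hours 1, 5 and 9. Each of 24 arrays paired the RNA of 1 vehicle mouse, labelled with Cy3, with that of 1 corticosterone mouse of the same hour, labelled with Cy5. No array had the dyes exchanged, so a constant difference between the dyes cannot be told apart from the treatment at a single hour, whereas it cancels when the effects of 2 hours are compared. The arrays came from 3 slides, each holding arrays of all 3 hours: 2, 2 and 4 arrays of hours 1, 5 and 9 on slide 1, and 3, 3 and 2 on slide 2 and on slide 3.

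The kinase mTOR works in complexes that promote protein synthesis and cell growth when nutrients, energy and growth factors are plentiful. Ddit4 (also called Redd1) and its relative Ddit4l restrain the first of these complexes through the tuberous sclerosis proteins, sestrins restrain it through the amino acid sensing arm, Deptor binds mTOR itself, and Prr5 (Protor-1) is a component of the second complex. FoxO transcription factors, which insulin and Akt signalling keep out of the nucleus, activate Depp1 among other genes, and glucocorticoids are known to raise Ddit4 in the brain and in muscle.

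Levels are given as normalized intensity, the background-corrected and normalized fluorescence of a probe on a linear scale, which can be compared between mice for 1 probe but not between probes. A gene is represented by its brightest probe. A change was called when its p value, from a test across all 56605 probes and adjusted over them, was under 0.05, and n is 8 mice in every group. Of the 14 probes, 12 were well above background in all 8 mice of all 6 groups by the scanner software's mark. The exceptions were the dimmer probes of Prr5 and Foxo3. The tissue label was checked with 6 general neuron markers and 5 markers of hippocampal neurons, all well above background on 8 of 8 arrays in every group.

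The number of arrays limits the precision, and 1 array stood apart. Both channels of replicate 7 of hour 5, on slide 3, had correlations of 0.982 (vehicle) and 0.981 (corticosterone) with the mean of their groups, against 0.991 to 0.998 in all other channels. It also had the most spots marked as outliers, 276 against 80 to 198 on the other arrays. Results that changed without it are given with both values, an alternative chosen after seeing the data.

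At hour 1, 5 of the 10 genes were called, where 17.5% of all probes and 20.7% of all named genes were called. Ddit4, Sesn1, Depp1 and Prr5 were higher after corticosterone and Ddit4l was lower, and the median log2 fold change of the 10 genes was 0.12 against -0.00 for all named genes. At hour 5, 1 gene was called, Sesn3, which was lower, against 18.1% of all probes and 20.8% of named genes. At hour 9, 2 genes were called, Ddit4l and Sesn2, both higher, against 14.0% of all probes and 15.6% of named genes. Named genes are represented by their brightest probe, as the 10 genes are, while the probes include many dim ones. Because the 10 genes were chosen with earlier results known, a share above that of all named genes is no test of the group. This holds for the comparisons below as well.

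The effect itself changed between hours in several of the genes. Between hours 1 and 9 the effect changed in 4 of 10 genes, downward in Ddit4, Depp1 and Prr5 and upward in Ddit4l, against 0.827% of all probes and 1.45% of named genes, and a test on the log ratios of the arrays called 3 of them, all but Ddit4l. Between hours 1 and 5 it changed in 1 gene, Ddit4, against 0.0389% of all probes and 0.0631% of named genes, and the test on log ratios called 2, Ddit4 and Depp1. Between hours 5 and 9 limma called 0 of 10 genes, against 0.0830% of all probes and 0.156% of named genes, with 3 genes at an unadjusted p under 0.05 and 0 genes in the test on log ratios.

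**Figure D1:**
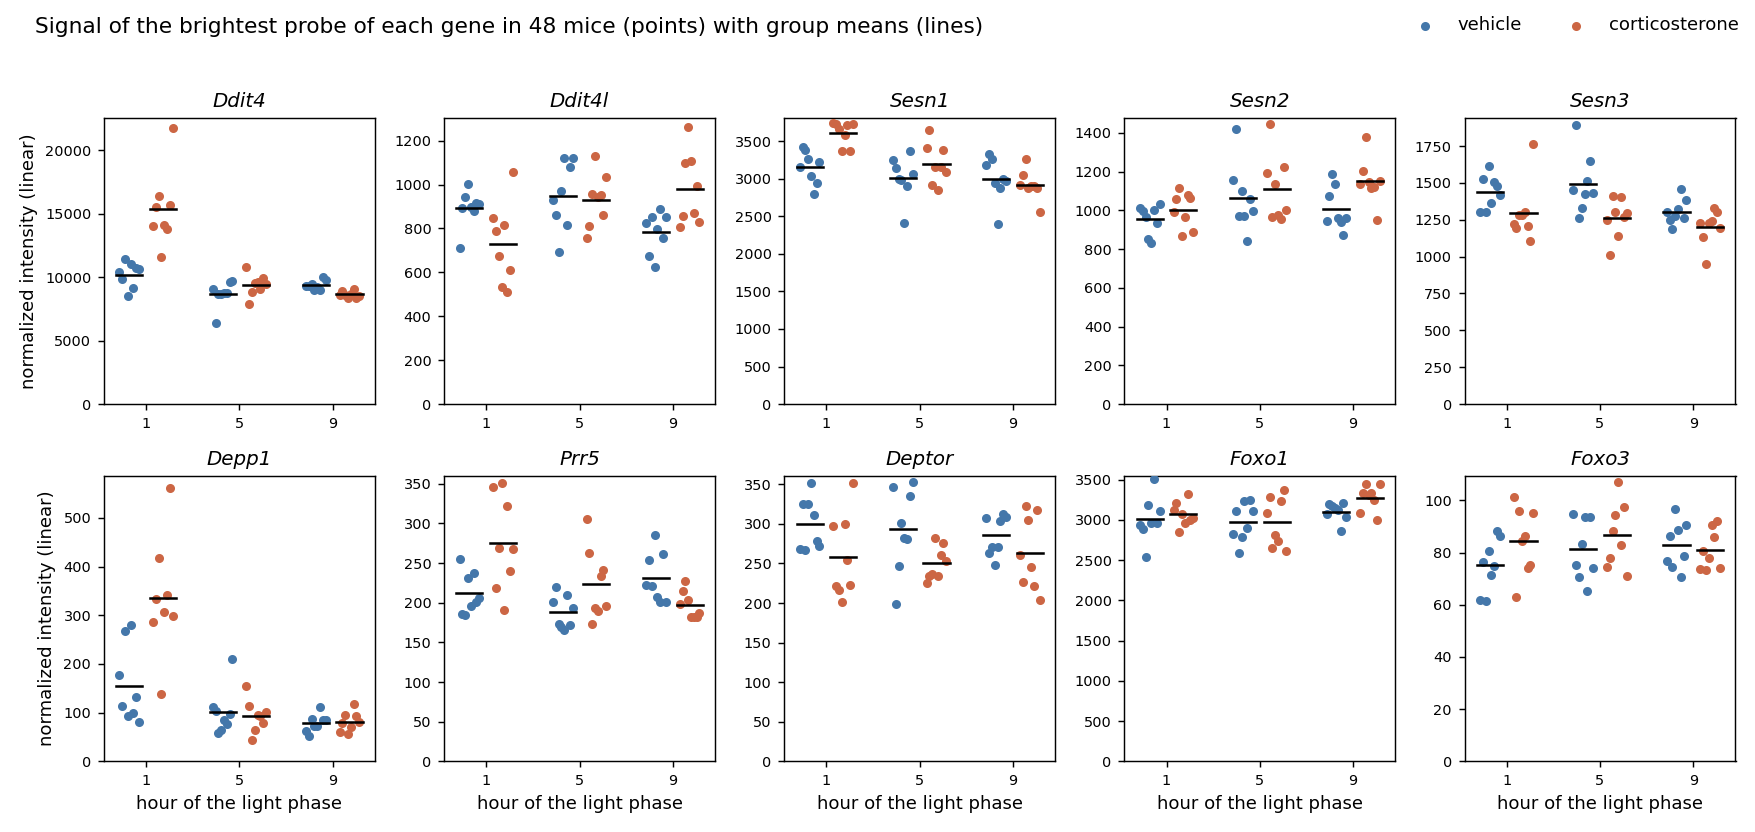
Normalized intensity (linear scale, each panel with its own axis from 0) of the brightest probe of each of the 10 genes in 48 mice (points), by hour of the light phase, with group means as lines. The hour 1 corticosterone mice for Ddit4, between 11605 and 21764, lie above all the hour 1 vehicle mice, between 8509 and 11420.

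Ddit4, the best known of the mTOR brakes, had the smallest adjusted p of the 10 genes. On its single probe, A_51_P245796, the hour 1 vehicle mice ranged from 8509 through a median of 10506 to 11420, and the corticosterone mice from 11605 through 14841 to 21764. The groups did not overlap, and 1 corticosterone mouse lay well above the other 7, which ended at 16402. The log2 fold change was 0.57 (SE 0.07, 1.49-fold), with an adjusted p of 2.0e-09 and higher values on 8 of 8 arrays.

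Later in the day the groups came together. At hour 5 vehicle mice ranged from 6426 through 8754 to 9688 and corticosterone mice from 7852 through 9479 to 10771, which overlapped widely. At hour 9 vehicle mice ranged from 8971 through 9303 to 10048 and corticosterone mice from 8325 through 8581 to 9088, so that the groups overlapped only at their edges. The log2 fold changes were 0.11 at hour 5 (adjusted p 0.21, higher on 7 of 8 arrays) and -0.12 at hour 9 (adjusted p 0.20, lower on 7 of 8 arrays), neither of them called, although a separate fit for each hour called the lower level at hour 9 (adjusted p 0.011). The effect fell by 0.46 on the log2 scale between hours 1 and 5 (SE 0.09, adjusted p 0.011), a call lost without slide 2 (adjusted p 0.13), without slide 3 (adjusted p 1.00) and without replicate 7 of hour 5 (adjusted p 0.051), and it fell by 0.69 between hours 1 and 9 (SE 0.09, adjusted p 6.5e-07).

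The mean levels of Ddit4 were 15373 ± 2977 (SD) in the hour 1 corticosterone mice, 10210 ± 984 in the hour 1 vehicle mice, 9386 ± 375 in the hour 9 vehicle mice, 9384 ± 852 in the hour 5 corticosterone mice, 8699 ± 1006 in the hour 5 vehicle mice and 8636 ± 256 in the hour 9 corticosterone mice. In that order only the step between the highest group and the next was larger than the SD of both groups. The corticosterone mice themselves fell by 0.70 on the log2 scale between hours 1 and 5 (adjusted p 1.3e-08), and they fell by 0.81 between hours 1 and 9 (adjusted p 4.6e-11). The vehicle mice changed by -0.23 (adjusted p 0.44) and -0.12 (adjusted p 0.63) over the same hours, which was not called.

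Depp1, a target of FoxO factors, had the largest log2 fold change of the 10 genes. At hour 1 its probe, A_51_P316935, ranged from 80.1 through 123 to 280 in vehicle mice and from 138 through 320 to 561 in corticosterone mice. The groups overlapped through the lowest corticosterone mouse, which lay among the vehicle mice, and the other 7 lay above all of them. On the log2 scale the difference was 1.17 (SE 0.21, 2.25-fold, adjusted p 1.5e-05), with higher values on 8 of 8 arrays.

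By hour 5 Depp1 ranged from 58.2 through 91.2 to 210 in vehicle mice and from 44.8 through 94.3 to 155 in corticosterone mice. At hour 9 the ranges were 53.1 through 78.4 to 111 and 55.3 through 79.9 to 118. The groups overlapped almost completely at both hours. The log2 fold changes were -0.08 at hour 5 (adjusted p 0.84, lower on 3 of 8 arrays) and 0.05 at hour 9 (adjusted p 0.935, higher on 4 of 8 arrays).

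The change of the Depp1 effect was -1.12 between hours 1 and 9 (SE 0.30, adjusted p 0.019), and this call was lost in 4 of 16 alternatives, among them p values at an offset of 0 (adjusted p 0.066) and signals processed by the scanner software (adjusted p 0.076). Between hours 1 and 5 it was -1.25 (SE 0.30, adjusted p 0.067), which was not called here but was in 5 of 16 alternatives, among them the test on log ratios (adjusted p 0.023). The mean levels ran from 335 ± 120 (SD) in the hour 1 corticosterone mice through 155 ± 78.9 in the hour 1 vehicle mice, 101 ± 47.7 and 93.6 ± 33.1 in the hour 5 vehicle and corticosterone mice, to 81.6 ± 20.3 and 78.6 ± 17.6 in the hour 9 corticosterone and vehicle mice. Only the first step in that order exceeded the SD of both groups. Vehicle mice also had lower values later in the day, with a log2 change of -0.86 between hours 1 and 9 that was not called (adjusted p 0.066). Corticosterone mice fell by 1.99 on the log2 scale over those hours (adjusted p 2.1e-08).

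Since Depp1 and Ddit4 moved together, the promoters, the stretch just before the transcription start, were read for motifs of factors known to act on genes of this kind. The RefSeq promoter set used (build GRCm38.p6) covered 9 of the 10 genes, all but Deptor. It gave 11 windows of 250 bases before the start. The motifs, searched on both strands, were the arm AGAACA of the glucocorticoid response element, the full element (the arm, any 3 bases and the arm read on the other strand), the FoxO motif in 4 spellings (GTAAACA or ATAAACA or GTAAATA or ATAAATA), the E-box CACGTG, the cyclic AMP response element TGACGTCA and the amino acid response element TGATGNAA. The arm is contained in the full element. Of 32851 promoter windows of that length, 0.00913% held the full glucocorticoid element, 16.1% its arm, 13.6% a FoxO motif, 6.02% the E-box, 1.55% the cyclic AMP element and 3.45% the amino acid element. Of the 11 windows, 1 held any of them: the window of Depp1 had the FoxO spelling GTAAATA, shown in capitals, starting 181 bases before the start. The windows of Depp1 (chr6:116650434-116650683, plus strand) and of Ddit4 (chr10:59951771-59952020, minus strand), the genes with the largest and the most firmly called effects, read as follows, 5′ to 3′.
Depp1: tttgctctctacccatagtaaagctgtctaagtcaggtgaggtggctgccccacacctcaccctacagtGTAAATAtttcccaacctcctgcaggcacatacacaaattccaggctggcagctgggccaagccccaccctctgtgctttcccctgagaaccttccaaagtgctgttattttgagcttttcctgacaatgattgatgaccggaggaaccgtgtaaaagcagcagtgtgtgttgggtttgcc
Ddit4: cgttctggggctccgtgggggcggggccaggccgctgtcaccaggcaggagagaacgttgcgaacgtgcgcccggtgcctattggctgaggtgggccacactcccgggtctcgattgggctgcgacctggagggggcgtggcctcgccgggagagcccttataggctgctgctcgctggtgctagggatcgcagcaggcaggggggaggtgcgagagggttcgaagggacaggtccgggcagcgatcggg
The presence of these letters is a description of the sequence, and whether any factor binds there was not measured.

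**Figure D2:**
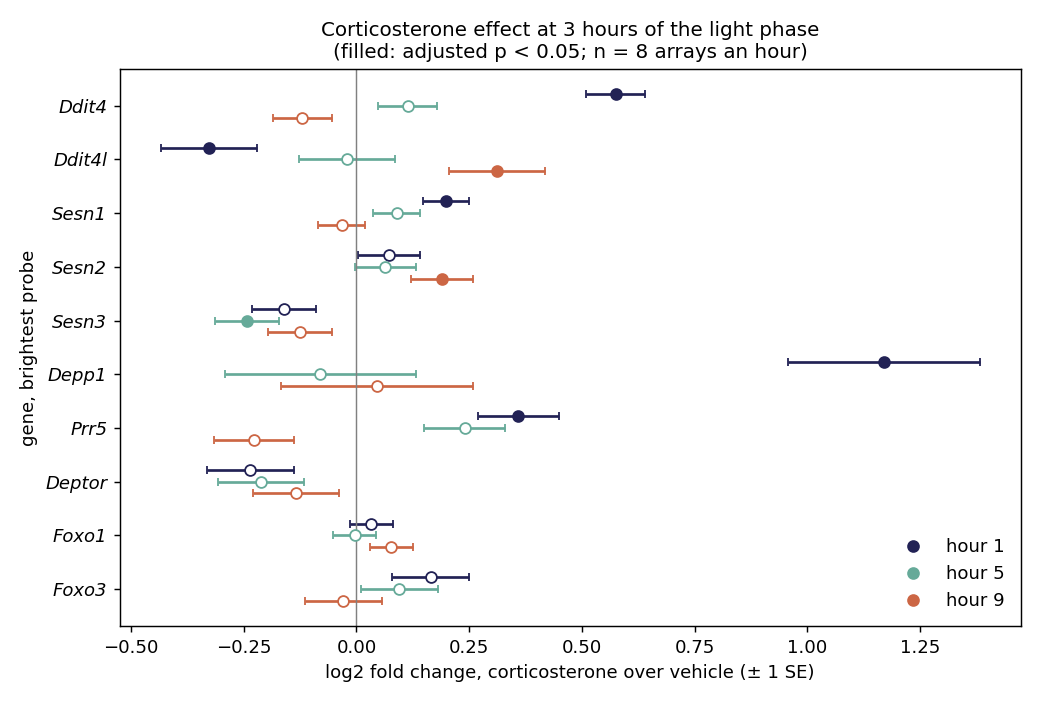
Log2 fold change of corticosterone over vehicle (x axis, points with bars of 1 SE) for the brightest probe of each gene (y axis) at the 3 hours, from 8 arrays an hour, with filled points for called changes. Depp1 at 1.17 and Ddit4 at 0.57 are the largest hour 1 effects.

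Ddit4l, the relative of Ddit4, went the other way. Its probe, A_55_P2792111, ranged at hour 1 from 711 through 905 to 1002 in vehicle mice and from 508 through 733 to 1059 in corticosterone mice. The groups overlapped, and the highest mouse of all was a corticosterone mouse. The log2 fold change was -0.33 (SE 0.11, adjusted p 0.023), with lower values on 6 of 8 arrays.

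At hour 5 Ddit4l ranged from 693 through 951 to 1122 in vehicle mice and from 755 through 949 to 1132 in corticosterone mice, with a log2 fold change of -0.02 (adjusted p 0.91, lower on 5 of 8 arrays). The groups overlapped throughout. At hour 9 the ranges were 625 through 810 to 889 and 805 through 931 to 1264, and the log2 fold change was 0.31 (SE 0.11, adjusted p 0.035), with higher values on 5 of 8 arrays. The groups overlapped in the stretch between 805 and 889.

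The change of the Ddit4l effect between hours 1 and 9 was 0.64 (SE 0.15, adjusted p 0.014). In order the mean levels were 978 ± 165 (SD) in the hour 9 corticosterone mice, 949 ± 155 in the hour 5 vehicle mice, 931 ± 121 in the hour 5 corticosterone mice, 894 ± 83.4 in the hour 1 vehicle mice, 784 ± 92.6 in the hour 9 vehicle mice and 730 ± 185 in the hour 1 corticosterone mice. Only the step from 894 to 784 exceeded the SD of both groups, and this change of the vehicle mice was not called (-0.19, adjusted p 0.66). The calls depended on the slides taken: without slide 2 the hour 1 log2 fold change was -0.22 (adjusted p 0.34), and without slide 1 the hour 9 log2 fold change was 0.20 (adjusted p 0.47). In a test on log ratios, which pairs the mice of an array, the change between these hours had an adjusted p of 0.062 and the hour 9 effect one of 0.069, so neither was called. The hour 9 call was also lost with the authors' ratios (adjusted p 0.054) and with signals processed by the scanner software (adjusted p 0.057), and the hour 1 call with the authors' ratios (adjusted p 0.062) and with a separate fit for each hour (adjusted p 0.053).

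Sesn1, the sestrin known as a p53 and FoxO target, was higher at hour 1 by a small step. Its probe, A_51_P233954, ranged from 2803 through 3187 to 3419 in vehicle mice and from 3375 through 3688 to 3740 in corticosterone mice. The groups overlapped only between 3375 and 3419, where 2 mice of each treatment lay. On the log2 scale the difference was 0.20 (SE 0.05, 1.15-fold, adjusted p 0.0026), with higher values on 8 of 8 arrays.

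The later values of Sesn1 were 2406 through 3030 to 3370 in hour 5 vehicle mice and 2850 through 3160 to 3648 in hour 5 corticosterone mice, a log2 fold change of 0.09 (adjusted p 0.20, higher on 7 of 8 arrays). At hour 9 they were 2400 through 2988 to 3330 and 2564 through 2907 to 3270, a log2 fold change of -0.03 (adjusted p 0.69, lower on 5 of 8 arrays). The groups overlapped at both hours. The change of the effect to hour 9, -0.23, was not called (SE 0.07, adjusted p 0.11), but it was in 2 of 16 alternatives: without slide 2 (-0.33, adjusted p 0.011) and with a mean intensity of 50 or more (adjusted p 0.039). Corticosterone mice fell by 0.31 on the log2 scale between these hours (adjusted p 2.2e-04). The mean levels ran from 3614 ± 157 (SD) in the hour 1 corticosterone mice through 3202 ± 266 in the hour 5 corticosterone mice, 3153 ± 213, 3015 ± 290 and 2997 ± 290 in the vehicle mice of hours 1, 5 and 9, to 2921 ± 196 in the hour 9 corticosterone mice. Only the step below the highest group exceeded the SD of both groups.

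Sesn2, the stress-induced sestrin that senses leucine, was called at hour 9 only. There its probe, A_51_P161354, ranged from 874 through 960 to 1187 in vehicle mice and from 953 through 1141 to 1381 in corticosterone mice. The groups overlapped, while the corticosterone mouse was the higher on 8 of 8 arrays. The log2 fold change was 0.19 (SE 0.07, adjusted p 0.040), and it was 0.19 with an adjusted p of 0.051 without replicate 7 of hour 5. The call was lost in 6 of 17 alternatives, among them p values at an offset of 0 (adjusted p 0.056) and signals processed by the scanner software (log2 fold change 0.15, adjusted p 0.10).

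At hour 1 Sesn2 ranged from 832 through 981 to 1032 and from 870 through 1026 to 1114 in vehicle and corticosterone mice, a log2 fold change of 0.07 (adjusted p 0.48, higher on 6 of 8 arrays). At hour 5 the ranges were 844 through 1028 to 1421 and 957 through 1072 to 1446, a log2 fold change of 0.06 (adjusted p 0.54, higher on 7 of 8 arrays). The groups overlapped at both hours. No change of the effect was called, with 0.12 between hours 1 and 9 (adjusted p 0.93). The 6 means lay between 954 ± 74.7 (SD) in the hour 1 vehicle mice and 1151 ± 118 in the hour 9 corticosterone mice, with no step between neighbours larger than the SD of both groups.

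Sesn3, the sestrin known as a FoxO target in other tissues, had lower medians after corticosterone at all 3 hours. Its probe, A_51_P246773, ranged at hour 5 from 1264 through 1442 to 1892 in vehicle mice and from 1011 through 1281 to 1414 in corticosterone mice. The groups overlapped between 1264 and 1414. On the log2 scale the difference was -0.24 (SE 0.07, adjusted p 0.0094), with lower values on 7 of 8 arrays. The call was lost with the authors' ratios (-0.21, adjusted p just above 0.05), without slide 1 (-0.14, adjusted p 0.21) and without slide 3 (-0.26, adjusted p 0.059). Replicate 2, on slide 1, had the lowest log2 ratio of the hour, -0.90.

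At hour 1 Sesn3 ranged from 1301 through 1448 to 1617 in vehicle mice and from 1107 through 1253 to 1761 in corticosterone mice, a log2 fold change of -0.16 (adjusted p 0.094, lower on 7 of 8 arrays). A single corticosterone mouse lay above all the vehicle mice, and the other 7 ended at the level of the lowest vehicle mouse. At hour 9 the ranges were 1188 through 1290 to 1459 and 953 through 1228 to 1327, a log2 fold change of -0.12 (adjusted p 0.23, lower on 7 of 8 arrays). The groups overlapped. The effect was not shown to differ between hours, since every change of effect had an adjusted p of 1. The 3 vehicle means, from 1495 ± 197 (SD) down to 1305 ± 84.8, lay above the 3 corticosterone means, from 1295 ± 198 down to 1200 ± 116, and in that order only the step between the hour 1 and hour 9 vehicle mice, 1439 ± 113 and 1305 ± 84.8, exceeded the SD of both groups. That step was not called (-0.14, adjusted p 0.58). A constant dye difference, which would act alike at all 3 hours, cannot be told apart from the lower level of Sesn3.

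Prr5, a component of the second mTOR complex, rose at hour 1. Its brighter probe, A_55_P2078204, ranged from 184 through 203 to 255 in vehicle mice and from 191 through 268 to 351 in corticosterone mice. The groups overlapped, with 5 of the 8 corticosterone mice above all vehicle mice. The log2 fold change was 0.36 (SE 0.09, adjusted p 0.0025), with higher values on 7 of 8 arrays.

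At hour 5 the same probe ranged from 165 through 183 to 220 and from 173 through 215 to 306, a log2 fold change of 0.24 (adjusted p 0.051, higher on 7 of 8 arrays). At hour 9 it ranged from 201 through 221 to 286 and from 181 through 193 to 227, a log2 fold change of -0.23 (adjusted p 0.071, lower on 7 of 8 arrays). The groups overlapped at both hours, and neither difference was called. The test on log ratios, which pairs the mice of an array, called both (adjusted p 0.017 at hour 5 and 0.028 at hour 9), and the hour 5 effect passed the threshold in 9 of 17 alternatives. The change of the effect between hours 1 and 9 was -0.59 (SE 0.13, adjusted p 0.0045), and between hours 5 and 9 it was -0.47 (SE 0.13, adjusted p 0.19).

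The mean levels of this probe were 276 ± 59.2 (SD) in the hour 1 corticosterone mice, 232 ± 31.5 in the hour 9 vehicle mice, 224 ± 44.8 in the hour 5 corticosterone mice, 212 ± 26.1 in the hour 1 vehicle mice, 197 ± 17.3 in the hour 9 corticosterone mice and 188 ± 20.8 in the hour 5 vehicle mice. No step between neighbours in that order was larger than the SD of both groups. Corticosterone mice fell by 0.46 on the log2 scale between hours 1 and 9 (adjusted p 0.0018).

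The dimmer Prr5 probe, A_52_P145482, was well above background in 1, 2 and 5 of 8 vehicle mice and in 8, 8 and 7 of 8 corticosterone mice at hours 1, 5 and 9. These marks follow the dye as well as the treatment, since on 24 of 24 arrays more probes were well above background in Cy5, the corticosterone channel (64.0% to 73.5%), than in Cy3, the vehicle channel (60.8% to 67.2%). Its hour 1 values ran from 24.8 through 34.9 to 42.1 in vehicle mice and from 44.8 through 52.3 to 62.3 in corticosterone mice. The groups did not overlap. On the log2 scale the difference was 0.65 (SE 0.10, adjusted p 8.0e-06, higher on 8 of 8 arrays), and the change of the effect to hour 9 was -0.67 (SE 0.14, adjusted p 0.0047). So near background the size of the difference depends on the processing, with values between 0.27 and 1.05 over 16 alternatives, all of them called. This change to hour 9 was not called without slide 1 or without slide 2.

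Deptor, which binds and restrains mTOR directly, was not called at any hour. Its brighter probe, A_65_P14821, had group medians between 238 and 294 and log2 fold changes of -0.24, -0.21 and -0.13 at hours 1, 5 and 9, with adjusted p values of 0.074, 0.099 and 0.36. The arrays with lower values numbered 6, 7 and 5 of 8. The dimmer probe, A_51_P445841, had group medians between 172 and 188 and log2 fold changes of 0.05, 0.03 and 0.04, so the probes differed in sign. In both probes the groups overlapped at every hour.

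Foxo1 and Foxo3 encode the FoxO factors themselves. Foxo1 had group medians between 2945 and 3320 on its brighter probe, A_55_P2798990, and log2 fold changes of 0.03, -0.00 and 0.08 with adjusted p values of 0.67, 0.97 and 0.25 and higher values on 5, 6 and 7 of 8 arrays. The other Foxo1 probe, A_52_P453884, had log2 fold changes of 0.04, -0.03 and -0.00. The groups overlapped at every hour. Foxo3 had group medians between 75.6 and 85.6 on A_55_P2506540, with log2 fold changes of 0.16, 0.09 and -0.03, adjusted p values of 0.19, 0.47 and 0.85 and higher values on 5, 6 and 3 of 8 arrays.

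The dimmer Foxo3 probe, A_55_P2735425, was near background, with 3, 1 and 2 of 8 vehicle mice and 8, 7 and 6 of 8 corticosterone mice marked well above it, a split that again runs along the dyes. At hour 5 it ranged from 15.2 through 29.7 to 38.5 in vehicle mice and from 34.7 through 36.7 to 42.6 in corticosterone mice. The groups overlapped, and the log2 fold change of 0.44 was called (SE 0.12, adjusted p 0.0077, higher on 8 of 8 arrays). Over 16 alternatives it lay between 0.15 and 0.74, and it was not called without slide 1 or without slide 3. Since the brighter probe of the gene was not called, the gene was not counted as called.

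Within vehicle mice limma called 0 of 10 genes in each comparison of hours. For hours 1 and 5 the share of all probes called was 0.00530%, and 2 of the 10 genes had an unadjusted p under 0.05. It was 0.537% for hours 1 and 9, with 1 such gene, and 0.0336% for hours 5 and 9, with 3 such genes. Of named genes 0.00841%, 0.837% and 0.0673% were called in these comparisons, in the same order.

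Within corticosterone mice more comparisons held calls. Ddit4 and Depp1 were called between hours 1 and 5, 2 genes both downward, against 0.546% of all probes and 0.858% of named genes. The comparison of hours 1 and 9 called 5 genes, against 4.02% of all probes and 6.23% of named genes. Ddit4, Depp1, Sesn1 and Prr5 were downward, and Ddit4l was upward by 0.45 on the log2 scale (adjusted p 0.020). Between hours 5 and 9 limma called 0 genes, against 0.661% of all probes and 1.1% of named genes, with 2 genes at an unadjusted p under 0.05.

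The slides were looked at because each of the 3 held arrays of all hours. The mean log2 ratio of Ddit4 at hour 1 was 0.55, 0.44 and 0.73 on slides 1, 2 and 3. For Depp1 it was 1.12, 0.45 and 1.92, so that the effect differed in size between slides but not in sign. For Sesn1 it was 0.19, 0.13 and 0.27, and for Prr5 it was 0.34, 0.37 and 0.36.

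Of the other calls, those of Ddit4l and Sesn3 varied between slides, and that of Sesn2 did so less. For Ddit4l the slide means were 0.04, -0.51 and -0.39 at hour 1 and 0.42, 0.22 and 0.18 at hour 9, the former with a different sign on slide 1. For Sesn3 at hour 5 they were -0.56, -0.06 and -0.21. For Sesn2 at hour 9 they were 0.17, 0.23 and 0.20.

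With the slide as a block in the fit, all 8 single-hour calls kept their side of the threshold, with adjusted p values from 3.5e-09 for Ddit4 to 0.040 for Ddit4l at hour 9, and Prr5 at hour 5 passed it (adjusted p 0.035). The changes of effect called in the main test were also called with the block, with adjusted p values of 8.6e-07 for Ddit4, 0.018 for Ddit4l, 0.028 for Depp1 and 0.0018 for Prr5 between hours 1 and 9 and 0.014 for Ddit4 between hours 1 and 5. Leaving out slide 3 took away 3 of the 5 hour 1 calls: Sesn1 had a log2 fold change of 0.15 (adjusted p 0.14), Prr5 of 0.36 (adjusted p 0.070) and Ddit4l of -0.29 (adjusted p 0.16). Ddit4 kept 0.48 (adjusted p 5.6e-05) and Depp1 kept 0.72 (adjusted p 0.049) without it. The change of the Ddit4 effect between hours 1 and 5 was -0.31 without slide 3 and -0.45 without replicate 7 of hour 5, with adjusted p values of 1.00 and 0.051.

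Other calls were lost with other slides left out, where the log2 fold changes stayed on the same side of 0. The change of the Ddit4 effect between hours 1 and 5 was -0.53 (adjusted p 0.13) without slide 2. Between hours 1 and 9 the change of effect of Depp1 was -1.15 (adjusted p 0.39) without slide 1 and -0.67 (adjusted p 0.67) without slide 3, that of Prr5 was -0.61 (adjusted p 0.053) and -0.56 (adjusted p 0.27), and that of Ddit4l was 0.64, 0.56 and 0.65 without slides 1, 2 and 3 (adjusted p 0.20, 0.31 and 0.15). Of the single-hour calls, Sesn3 at hour 5 was -0.14 (adjusted p 0.21) without slide 1 and -0.26 (adjusted p 0.059) without slide 3. Each of these fits holds 16 of the 24 arrays. At hour 9, Sesn2 was 0.21, 0.18 and 0.19 (adjusted p 0.099, 0.18 and 0.12) without slides 1, 2 and 3, and Ddit4l was 0.34 (adjusted p 0.074) without slide 2 and 0.36 (adjusted p 0.058) without slide 3. The rise of Ddit4l in corticosterone mice between hours 1 and 9 was not called without any 1 of the slides, nor was the fall of Prr5 without slide 3.

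**Figure D3:**
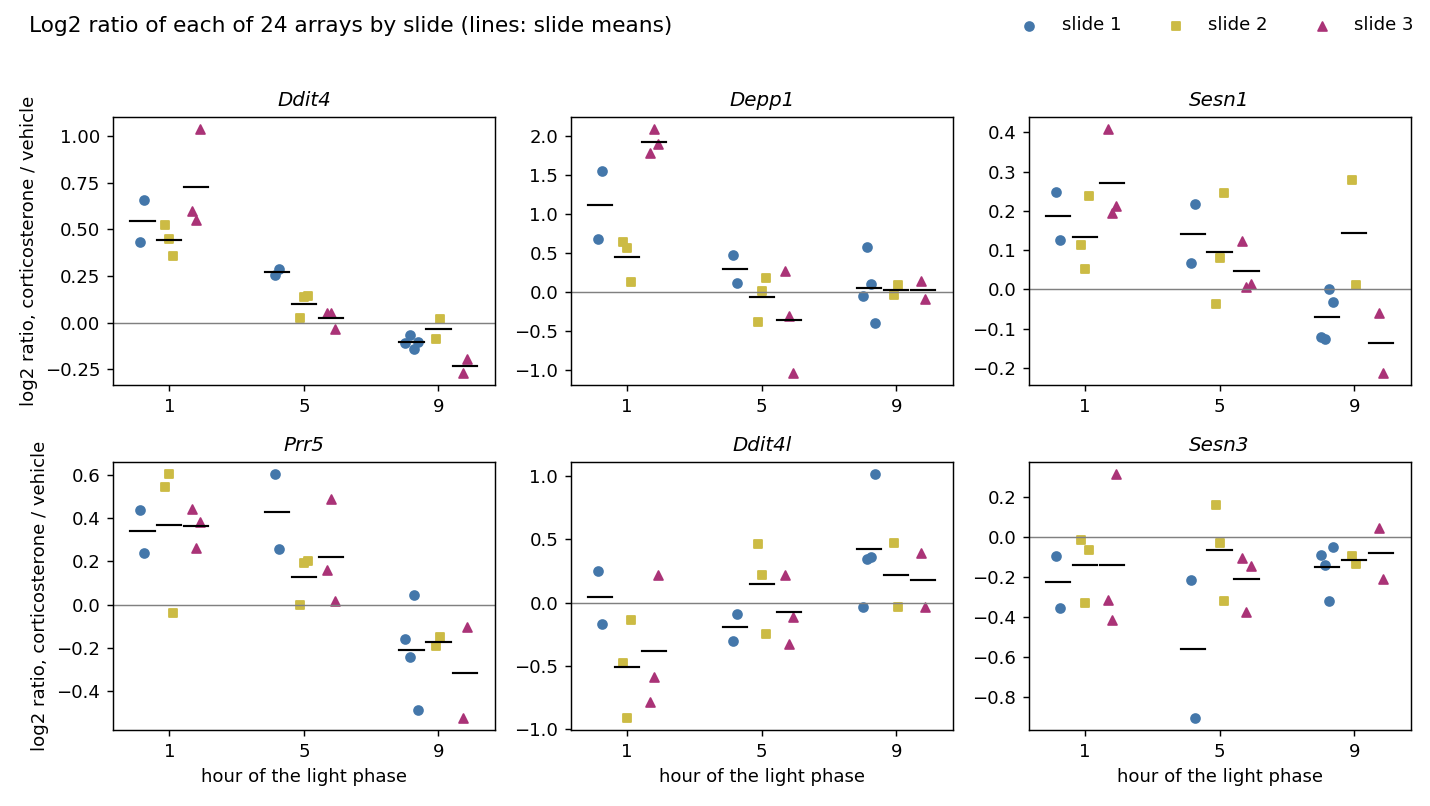
Log2 ratio of corticosterone over vehicle on each of 24 arrays (points, y axis) by hour of the light phase (x axis) and slide (symbols), with slide means as lines, for 6 of the genes. The hour 1 Depp1 means of 1.12, 0.45 and 1.92 are spread most between slides.

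The genes around the 10 in the same pathways were counted from lists, beside the shares of all named genes called, 20.7%, 20.8% and 15.6% at hours 1, 5 and 9. Of 35 genes of the mTOR complexes and their inputs, 5 were called higher and 5 lower at hour 1, with a median log2 fold change of -0.02, against 2457 higher and 2465 lower of 23787 named genes with a median of -0.00. The 5 with the smallest adjusted p were Tbc1d7 (log2 fold change 0.28, adjusted p 2.7e-06, higher on 7 of 8 arrays), a subunit of the tuberous sclerosis complex, Wdr24 (0.26, 4.4e-06, 8 of 8), a subunit of the amino acid sensing arm, the arginine sensor Castor1 (0.70, 1.4e-05, 8 of 8), whose probe was dim at a mean intensity of 39, Rragd (-0.24, 3.9e-04, lower on 8 of 8), a Rag GTPase, and Prr5l (-0.34, 0.0017, lower on 8 of 8), the relative of Prr5. At hour 5, 8 were higher and 3 lower, against 2356 and 2598 of all named genes, and at hour 9, 3 and 2, against 1991 and 1715. Between hours 1 and 9 limma called a change of effect in 0 of the 35, with 2 at an unadjusted p under 0.05.

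Of 14 effectors of mTOR, such as the ribosomal kinases and translation factors, 2 were higher and 2 lower at hour 1, with a median of 0.10. They were Lpin1 (0.19, adjusted p 0.0024, higher on 7 of 8 arrays), Eif4b (-0.21, 0.0034, lower on 7 of 8), Rps6 (0.12, 0.049, higher on 8 of 8) and Tfe3 (-0.09, 0.049, lower on 7 of 8). At hour 5, 3 were higher and 3 lower, and at hour 9, 1 was higher and 0 lower, so that 28.6%, 42.9% and 7.14% were called at the 3 hours. Of all named genes 20.7%, 20.8% and 15.6% were called. No change of effect was called between hours 1 and 9, with 0 genes at an unadjusted p under 0.05.

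Of 18 genes of the insulin and AMPK inputs, 4 were higher and 2 lower at hour 1, with a median of 0.04. The 5 with the smallest adjusted p were the insulin receptor substrate Irs2 (0.28, adjusted p 4.2e-06, higher on 8 of 8 arrays), the AMPK subunit genes Prkag2 (-0.25, 2.3e-05, lower on 7 of 8) and Prkaa1 (-0.16, 0.0050, lower on 6 of 8), the AMPK kinase gene Stk11 (0.17, 0.010, higher on 7 of 8) and Irs1 (0.15, 0.012, higher on 7 of 8). At hour 5, 3 were higher and 3 lower, and at hour 9, 4 and 2, a share of 33.3% called at each hour. The shares of all named genes were 20.7%, 20.8% and 15.6%. Between hours 1 and 9 the effect changed upward in Akt2 (0.32, adjusted p 0.0046) and downward in Irs2 (-0.30, adjusted p 0.0027), against 117 upward and 228 downward of all named genes.

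Of 20 other FoxO genes and FoxO targets, a list that also holds Irs2, 6 were higher and 1 lower at hour 1, with a median of 0.08. Beside Irs2, the smallest adjusted p values were those of the metabolic kinase Pdk4 (0.85, 2.2e-10, higher on 8 of 8 arrays), the thioredoxin-binding Txnip (0.53, 1.5e-06, 7 of 8), the FoxO gene Foxo6 (0.41, 6.3e-06, 8 of 8) and the catalase gene Cat (-0.43, 2.6e-05, lower on 8 of 8). Foxo6 was also higher at hour 5 (0.37) and hour 9 (0.52), on 8 of 8 arrays each time. As for Sesn3, a constant dye difference cannot be told apart from the higher level of Foxo6. At hour 5, 5 were higher and 1 lower, and at hour 9, 4 and 2, so that 35%, 30% and 30% were called at the 3 hours against 20.7%, 20.8% and 15.6% of all named genes. The effect changed downward between hours 1 and 9 in 4 of the 20: Pdk4 (-0.89, adjusted p 2.6e-06), Txnip (-0.72, adjusted p 2.5e-05), Klf2 (-0.75, adjusted p 0.011) and Irs2. Of 23787 named genes, 228 changed downward.

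The other lists were the targets of p53 and of the stress factor ATF4, which are known activators of sestrin and Ddit4 genes, and of the glucocorticoid receptor. Of 12 p53 targets, 4 were higher and 1 lower at hour 1, with a median of -0.00: Pmaip1 (1.27, adjusted p 2.0e-12, higher on 8 of 8 arrays), Cdkn1a (2.06, 3.5e-12, 8 of 8), Mdm2 (0.20, 3.1e-05, 8 of 8), Bax (-0.17, 0.0010, lower on 8 of 8) and Trp53inp1 (0.45, 0.0040, 8 of 8). Of 12 ATF4 targets, 0 were higher and 3 lower, with a median of -0.00: Phgdh (-0.35, 1.1e-07, lower on 8 of 8), Slc7a11 (-0.27, 0.035, 7 of 8) and Asns (-0.12, 0.040, 7 of 8). The shares called at hour 1 were 41.7% of the p53 targets and 25% of the ATF4 targets, against 20.7% of all named genes. The authors count Cdkn1a, and Pdk4 of the FoxO list, among genes already known to respond to glucocorticoids. These lists are therefore not separate from that response, and which factor acted was not tested.

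Of 10 glucocorticoid receptor targets, 9 were higher and 0 lower at hour 1, with a median of 0.61. Ranked by adjusted p, the first 5 were Mt2 (1.5, adjusted p 3.3e-20), Sgk1 (0.71, 1.3e-10), Nfkbia (0.76, 2.0e-10), Tsc22d3 (0.93, 4.9e-10) and Klf15 (0.62, 8.1e-08), each higher on 8 of 8 arrays. At hour 5, 4 were higher and 0 lower, with a median of 0.20, and at hour 9, 0 were higher and 7 lower, with a median of -0.27. Of all named genes 20.7%, 20.8% and 15.6% were called at hours 1, 5 and 9. The effect changed downward between hours 1 and 9 in all 10 of the list, with a median of -0.76, against 117 upward and 228 downward of 23787 named genes. This list, like the others, was chosen with earlier results of these data known. For the p53 targets the calls were 2 higher and 2 lower at hour 5, 1 and 2 at hour 9, and 1 upward (Bbc3, 0.31, adjusted p 0.0093) and 2 downward (Pmaip1 and Cdkn1a) for the change of effect to hour 9. For the ATF4 targets they were 1 higher and 3 lower at hour 5, 1 and 1 at hour 9, and 0 for the change of effect by limma, with 2 genes at an unadjusted p under 0.05.

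**Figure D4:**
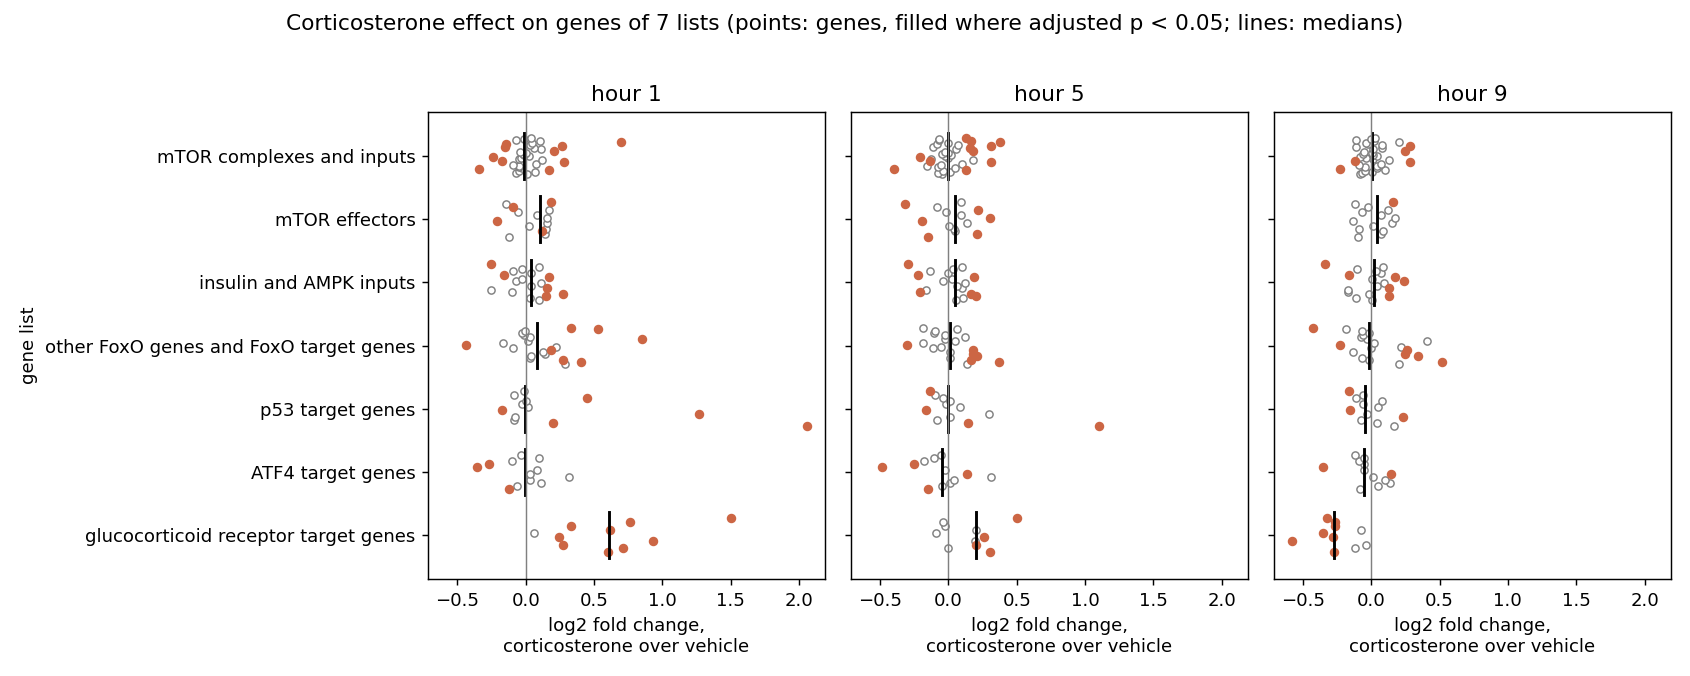
Log2 fold change of corticosterone over vehicle (x axis) of the genes of 7 lists (y axis, points, filled where called) at the 3 hours, with list medians as lines. The median of the glucocorticoid receptor targets is 0.61, 0.20 and -0.27 at hours 1, 5 and 9.

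The array ratios of the genes called at any hour were correlated with those of 22420 other probes of named genes over 24 arrays, which share slides and hours, so that genes with the same course over the hours correlate. Ddit4 was most like Pmaip1 (Pearson r 0.947), Sgk1 (0.940) and Nfkbia (0.936), whose hour 1 log2 fold changes were 1.27, 0.71 and 0.76. Prr5 was most like Hif3a (0.950), Mc4r (0.897) and Zbtb16 (0.886), and the Hif3a log2 fold changes of 1.53, 1.05 and -0.71 followed the same order of hours. Depp1 was most like B4galt1 (0.817), Hspb7 (0.807) and Plekhf1 (0.802).

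The neighbours of the other genes called were these. Sesn1 was most like Acer2 (0.762), Ramp3 (0.747) and Nostrin (0.742), and Sesn2 like 9530068E07Rik (0.825), Ctbp2 (0.813) and Hibadh (0.732). Sesn3 was most like L3mbtl3 (0.913), Tmem132a (0.910) and Cab39 (0.865), whose own log2 fold changes lay between -0.08 and 0.07 at the 3 hours. Ddit4l was most like Bend3 (0.837), Ier5 (0.834) and Tle4 (0.833). Among the 10 genes themselves the largest correlations were 0.80 between Ddit4 and Depp1, -0.71 between Ddit4l and Prr5, 0.70 between Ddit4 and Prr5, 0.66 between Ddit4l and Deptor and 0.65 between Ddit4 and Sesn1.

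Markers of cell types were read beside these results, since the tissue holds many cell types, and fewer cells of a type cannot be told apart from less RNA per cell. The shares of all named genes called were 20.7%, 20.8% and 15.6% at hours 1, 5 and 9. Of 5 endothelial markers, 1 (Pecam1) was higher and 3 were lower at hour 1, and their summed level ranged from 8736 through 9287 to 10864 in vehicle mice and from 6085 through 6906 to 7988 in corticosterone mice. The groups did not overlap. The sums add the intensities of the brightest probe of each gene, and the gene with the brightest of these is named as leading the sum. Since intensities of different probes are not on 1 scale, a sum mostly follows its brightest probes and is no measure of a cell type. Flt1 led it, at a log2 fold change of -0.61 (adjusted p 1.5e-08, lower on 8 of 8 arrays). At hour 5, 1 was higher and 2 lower, and at hour 9, 1 and 1, and Cldn5 changed its effect by 0.60 between hours 1 and 9 (adjusted p 2.5e-05). The endothelial sums were 8814 through 9387 to 10969 and 7026 through 8018 to 8766 at hour 5, and 8030 through 8568 to 9837 and 7584 through 7972 to 8668 at hour 9, in vehicle and corticosterone mice.

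Of 5 astrocyte markers, 1 was higher (Aldh1l1, 0.57) and 1 lower (Aqp4, -0.76) at hour 1, and the sum, led by Slc1a3, ranged from 22210 through 23338 to 25505 in vehicle mice and from 25523 through 26218 to 27338 in corticosterone mice, with no overlap, while the median log2 fold change of the 5 was 0.04. At hours 5 and 9, 1 astrocyte marker was higher and 2 were lower. Neuron markers had 0 called of 6 at hour 1, with 2 at an unadjusted p under 0.05, and sums of 128873 through 131963 to 137572 and 121684 through 131808 to 141558. At hour 5, 3 of the 6 were called higher, and at hour 9, 2 of them, with 0 lower. The hour 5 sums were 122429 through 127574 to 136222 in vehicle mice and 131563 through 136183 to 145441 in corticosterone mice, and the groups overlapped. The part of cell composition in the results for the 10 genes was not tested.

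In 5 further lists the calls at hour 1, where 20.7% of all named genes were called, were 0 higher and 2 lower of 5 for microglia, 0 and 1 of 4 for mural cells, 0 and 1 of 4 for blood, 1 and 0 of 5 for hippocampal neurons (Spink8), and 0 and 0 of 5 for the choroid plexus, with 0 at an unadjusted p under 0.05. The hour 1 microglia sum, led by Csf1r, had medians of 14156 in vehicle and 13623 in corticosterone mice, the mural sum, led by Acta2, of 6832 and 6978, the hippocampal neuron sum, led by Zbtb20, of 34944 and 36862, the choroid plexus sum, led by Kl, of 1359 and 1244, and the blood sum, led by Hba-a1, of 24545 and 26442. In these 5 lists the groups overlapped. Another list of cell type markers was run and is not given, so the lists shown are not a complete account of the markers. Folr1 of the choroid plexus list was well above background in 4 of 8 vehicle mice at hour 1, and S100a8 of the blood list in 0 of 8 mice of either treatment.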

How the data were processed

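Agilent two-colour arrays measured RNA in 48 hippocampi. Per the file headers the deposited array files hold spot and local background intensity, and other columns hold marks of 0 or 1 per spot. The table deposited by the authors holds log2 ratios of Cy5 over Cy3, with array medians from 0.00240 to 0.00889, and lies within a median absolute difference of 0.00119 of loess ratios computed here with an offset of 50. Outlier spots (80 to 276 an array) were set missing, 3671 control spots an array were left out, and copies of a probe were averaged. Of 56605 probes, 34566 mapped to 1 gene symbol. In R 4.3.3 with limma 3.58.1 and statmod 1.5.0, median signals were background-corrected by normexp, normalized by loess within and by quantiles between arrays, and tested with limma's separate channel analysis of 6 groups (intraspot correlation 0.279), adding an offset of 50 where p values were computed and 0 where fold changes, SE and intensities were. Adjusted p values follow Benjamini and Hochberg over all probes for each comparison, and calls are at an adjusted p under 0.05. On simulated data the test recovered a share of 1 of the changes of 1.0 and 0.960 of those of 0.5 on the log2 scale, with a false share of 0.0531. The simulation gave each channel the spread of the average of both channels. It held fewer probes and no slide or dye effects, so these shares may not hold for the real arrays. Alternatives covered offsets, background correction, normalization, filters, test, slide block, each slide left out and the authors' ratios. The text names all 10 genes and their probes, up to 5 genes of each list by smallest first-hour adjusted p, and the 3 most correlated probes of each gene called. Akt2, Klf2 and Bbc3 and the cell type markers named fall outside that rule and were chosen after their values were seen. The members and lists were chosen with earlier results of these data known. Hbb-bs had no probe. The text leaves out 1 of the lists of cell type markers run.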

Additional observations from a re-analysis of the deposited data

Results flagged for a closer look

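In 60 groups of 8 mice (10 genes, 6 groups), the mouse at either end was compared with its nearest neighbour on the log2 scale, and 5 groups had a mouse whose gap to the next was a larger share of the whole range than Dixon's limit for 8 values. Chance gives about 1 in 20 groups. The lowest fifth-hour vehicle mouse for Ddit4 had an intensity of 6426, against 8658 for the next. The lowest first-hour vehicle mouse for Ddit4l had 711, against 878. The lowest vehicle mice for Sesn1 had 2406 in the fifth hour, against 2903, and 2400 in the ninth hour, against 2884. The highest first-hour corticosterone mouse for Sesn3 had 1761, against 1301.

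The corticosterone effect differed between hours in 5 comparisons by the test of the difference itself. For Ddit4 the log2 fold change differed by -0.46 between hours 1 and 5 (adjusted p 0.011) and by -0.69 between hours 1 and 9 (adjusted p 6.5e-07). For hours 1 and 9 it also differed by 0.64 for Ddit4l (adjusted p 0.014), by -1.12 for Depp1 (adjusted p 0.019) and by -0.59 for Prr5 (adjusted p 0.0045). These calls were not all kept under the alternatives: that of Ddit4 between hours 1 and 5 was lost in 3 of 16, and those between hours 1 and 9 in 5 of 16 for Ddit4l, 4 of 16 for Depp1 and 2 of 16 for Prr5. The test on log ratios, which pairs the mice of an array, did not call Ddit4l (adjusted p 0.062). The sign of the effect of each gene was that on 8, 6, 8 and 7 of 8 first-hour arrays for Ddit4, Ddit4l, Depp1 and Prr5.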

How the results depend on the processing

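No called effect reversed under any alternative run, while differences that were not called and lay near 0 changed sign in some, such as that of Depp1 at hour 5 (-0.21 to 0.08). The hour 1 calls of Ddit4 (log2 fold change 0.48 to 0.65) and Depp1 (0.72 to 1.61) stayed on their side of the threshold in all 17 alternatives run on them, those of Sesn1 and Prr5 in 16 of 17 and that of Ddit4l in 13 of 17. Of the later calls, Sesn3 at hour 5 stayed in 14 of 17, and Ddit4l and Sesn2 at hour 9 in 11 of 17 each. The number of the 10 genes called was within 1.5 times the reported count in 17 of 18 alternatives for hour 1, 7 of 18 for hour 5, 10 of 18 for hour 9, 11 of 17 and 15 of 17 for the changes of effect between hours 1 and 5 and between hours 1 and 9, 16 of 17 for the change between hours 5 and 9, 15 of 15 for vehicle mice and 14 of 15 for corticosterone mice between hours 1 and 9.

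Without slide 1 the count was 0 at hour 5, 0 at hour 9 and 1 for the change of effect between hours 1 and 9. Without slide 2 it was 2 at hour 5 and 0 at hour 9, and for the change between hours 1 and 9 it stayed at 4 with Sesn1 in place of Ddit4l. For the change between hours 1 and 5 it stayed at 1 without slide 2, with Depp1 (-1.70, adjusted p 0.0018) in place of Ddit4. Without slide 3 it was 2 at hour 1, 0 at hour 5, 0 at hour 9, 0 for the change between hours 1 and 5, 1 for the change between hours 1 and 9 and 3 for corticosterone mice between hours 1 and 9. These alternatives hold fewer arrays. Without hour 5 replicate 7, chosen after seeing the data, it was 1 at hour 9 and 0 for the change between hours 1 and 5.

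At hour 5 the count was 2, in place of 1, with any probe of a gene, no background correction, median centring instead of loess, Aquantile normalization between arrays, a mean intensity of 50 or more, probes well above background on 8 arrays, the test on log ratios and the slide as a block. At hour 9 it was 1, in place of 2, with p values computed at an offset of 0 and with the authors' log2 ratios, 0 with signals processed by the scanner software, and 4 with a separate fit for each hour, which added Ddit4 and Prr5. With the test on log ratios the count at hour 9 stayed at 2, with Prr5 in place of Ddit4l, and with the authors' log2 ratios the count at hour 5 stayed at 1, with Prr5 in place of Sesn3. The losses at hour 9 with an offset of 0 were of Sesn2 and with the scanner software's signals of Sesn2 and Ddit4l. For the change between hours 1 and 5 it was 2, in place of 1, with a mean intensity of 50 or more, with probes well above background on 8 arrays, with the test on log ratios and with the authors' log2 ratios, and for the change between hours 5 and 9 it was 1, in place of 0, with the authors' log2 ratios. Under the 2 filters fewer probes were tested, and for the rest the cause was not tested. Over all probes the calls at hour 1 ranged from 4549 to 11580 and for the change between hours 1 and 9 from 123 to 630.

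Limits are that 24572 of 56605 probes had a mean intensity under 50, which bears on the dimmer Prr5 and Foxo3 probes, that the dyes were never exchanged, and that 8 arrays an hour set the precision. The authors took each group from several litters and the vehicle mice from among brothers of the corticosterone mice, but the labels do not say which mice are related, so that kinship was left out of the fit and the 8 mice of a group were treated as independent.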
